A study of Homo sapiens with 16 samples.

Results

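This set of 10 DNA damage checkpoint genes was followed in U2OS cells, which come from a human osteosarcoma, after serum withdrawal and treatment with harmine or INDY. They were the kinases ATM, ATR, CHEK1 and CHEK2, the ATR partner ATRIP, the clamp subunit HUS1, the chromatin mediators MDC1 and TP53BP1, and the ubiquitin ligases RNF8 and RNF168. The 10 genes were taken by symbol from a table of 59081 genes, as members of the pathway and not by a measured value, with earlier results of these data known, and all 10 were among the 20446 genes with enough counts to be tested. PolyA-selected RNA was sequenced in 16 libraries of 4 groups with 4 libraries each. The groups were harmine hydrochloride at 10 µM and its control of an equal amount of water, and INDY at 25 µM and its control of DMSO. All 4 groups were kept without serum for 48 h, and compound or vehicle was present for the last 24 h. Harmine is a plant alkaloid and INDY a synthetic compound, and both inhibit the kinase DYRK1A, which can promote assembly of the DREAM repressor complex. No control library was shared between the compounds, and their doses and vehicles differed. All libraries came from a single cell line, and no label states that the 4 libraries of a group are independent cultures. The p-values therefore rest on library-to-library spread, which may be technical.

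ATM and ATR are the apical kinases of the DNA damage response. ATM is activated at double-strand breaks through the MRE11 complex and signals to CHEK2, whereas ATR is recruited with ATRIP to single-stranded DNA coated with RPA and signals to CHEK1. HUS1 forms a ring-shaped clamp with RAD9 and RAD1 that helps to activate ATR. At breaks, MDC1 binds the phosphorylated histone H2AX, RNF8 and RNF168 then build ubiquitin marks on chromatin, and TP53BP1 (53BP1) binds the marked nucleosomes and limits resection of the ends.

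Levels are given in CPM, the count of a gene scaled to a common library size with TMM factors. Totals of estimated counts were between 44301910 and 65889667 per library and overlapped between the 4 groups. On the first principal component of log2 CPM, INDY replicates 1 and 3 lay apart from INDY replicates 2 and 4, and on the third component water replicates 1 and 4 lay apart from water replicates 2 and 3. The sum of 10 mesenchymal and osteoblast lineage markers, mostly VIM, was 3798 to 3890 CPM with harmine and 3097 to 3334 CPM with water, and 3374 to 3781 CPM with INDY and 3361 to 3593 CPM with DMSO. TWIST1 was at 0 in all 16 libraries. Of the 8 tested, 5 rose and 3 fell with harmine, where 24.9% of all genes tested rose and 22.8% fell. With INDY 2 rose and 6 fell, where 33.2% of all genes tested rose and 33.4% fell. The 2 that rose with INDY were VIM (0.28) and SPP1 (0.65), and the largest fall was that of the osteoblast marker ALPL (-2.29). Of 9 epithelial and 9 blood cell markers, 7 in each list were under 1 CPM in all 16 libraries. The epithelial sum, mostly CLDN4, was 31.1 to 34.0 CPM with harmine and 60.8 to 79.4 CPM with water, and 36.6 to 48.6 CPM with INDY and 51.8 to 62.3 CPM with DMSO. The blood sum, mostly CD68, was 13.3 to 14.4 CPM with harmine and 11.7 to 14.6 CPM with water, and 27.9 to 36.1 CPM with INDY and 12.1 to 15.0 CPM with DMSO. Their part in the results was not tested. The sum of 16 proliferation markers was 3212 to 3331 CPM with harmine and 2207 to 2602 CPM with water, and 2692 to 3124 CPM with INDY and 2589 to 2748 CPM with DMSO. In bulk RNA, a change in the share of cells that express a gene and a change in RNA per cell cannot be told apart.

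Most of the checkpoint genes differed from the vehicle, and most differences were under 1.5-fold. With harmine, ATR, ATRIP, CHEK1 and MDC1 rose and TP53BP1 and HUS1 fell, so 6 of 10 genes passed an adjusted p of 0.01 in edgeR's quasi-likelihood test, where 47.7% of all genes tested passed. With INDY, ATR, ATRIP, CHEK1, MDC1, RNF8 and RNF168 rose and ATM and TP53BP1 fell, so 8 of 10 passed, against a background of 66.6%. Both shares stood near their backgrounds with so few genes. With both compounds 4 genes rose and 1 fell, where 12.1% of all genes tested rose and 12.0% fell with both. CHEK2 was the gene called with neither compound. The median log2 fold change of the 10 genes was 0.11 with harmine, beside 0.02 for all genes tested, and 0.23 with INDY, beside -0.01 for all genes tested. The groups did not overlap for 6 of 10 genes with harmine, where 55.1% of all genes did not overlap, and for 7 of 10 with INDY, where the background was 67.5%.

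**Figure D1:**
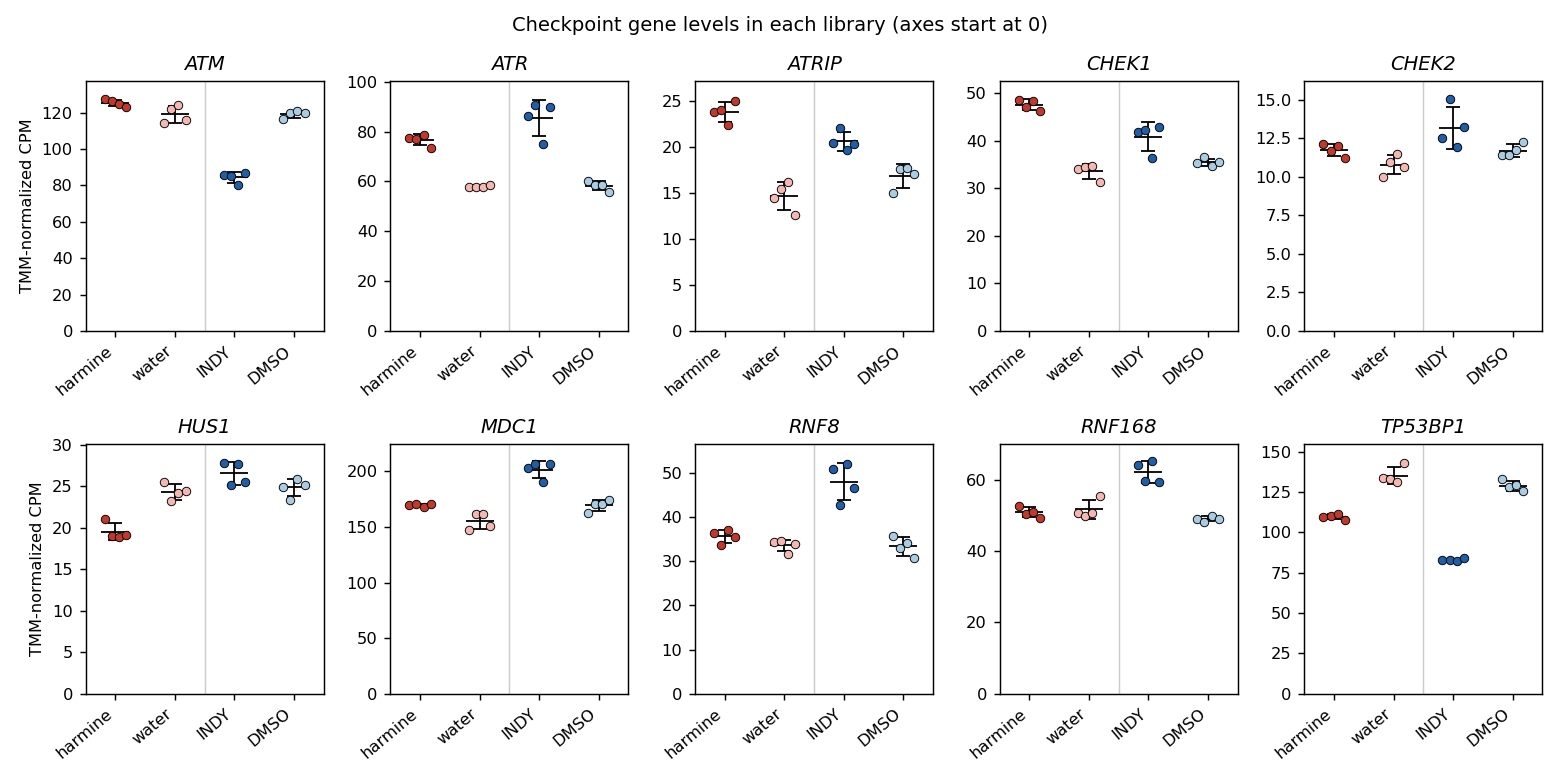
CPM of each checkpoint gene (y axis, from 0) in the 4 libraries of each group (x axis: harmine, water, INDY, DMSO); points are libraries and the bars show the group mean with its SD. ATM stood at 80.1 to 87.0 CPM in INDY libraries and at 116 to 121 CPM in DMSO libraries, while ATR was higher with either compound than with its vehicle.

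**Figure D2:**
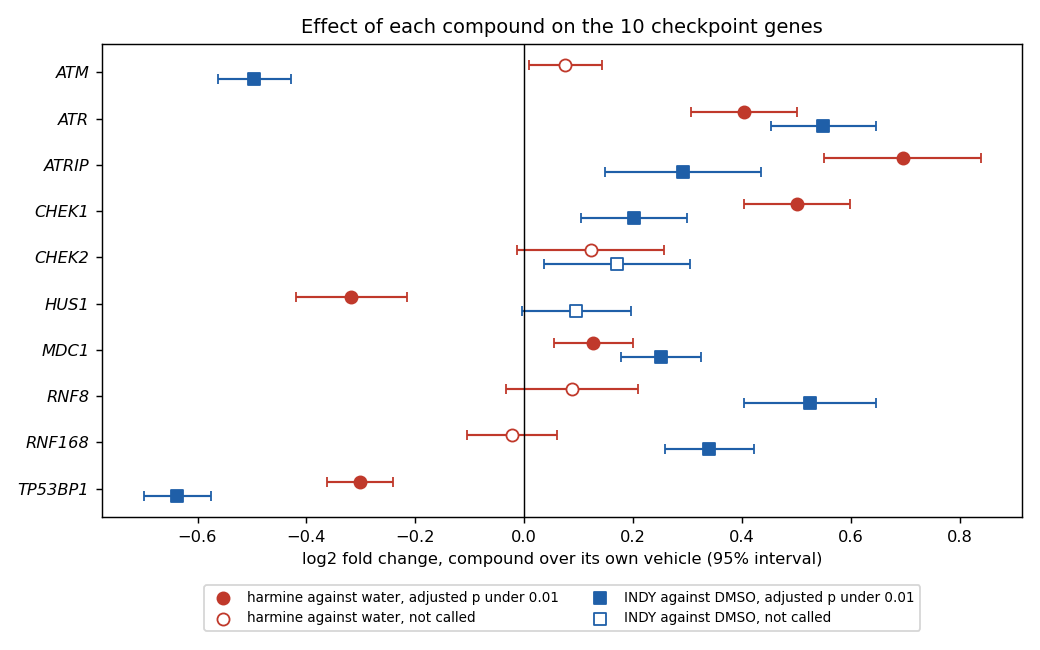
Log2 fold change of the 10 checkpoint genes with harmine over water and with INDY over DMSO, with 95% confidence intervals derived from the edgeR test. ATRIP had the largest rise with harmine (0.70) and TP53BP1 the largest fall with INDY (-0.64).

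The 10 genes lie on 6 chromosomes of GRCh38. ATM spans chr11:108223044-108369102 on the plus strand and has 63 exons, and CHEK1 lies on the same chromosome at chr11:125625163-125676255. ATR (chr3:142449007-142578733), ATRIP (chr3:48446710-48467645) and RNF168 (chr3:196468783-196503768) are on chromosome 3. MDC1 (chr6:30699807-30717447) and RNF8 (chr6:37353979-37394734) are on chromosome 6. CHEK2 spans chr22:28687743-28742422, TP53BP1 chr15:43403061-43510728 and HUS1 chr7:47963288-47979615. The DREAM complex binds E2F sites and the cell cycle genes homology region (CHR), and promoters of the genes were searched for both by spelling alone.

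Promoter windows of 300 bases, 250 before to 50 after the start site, came from RefSeq (GRCh38.p14) and were found for 9 of the 10 genes; HUS1 was not matched. E2F was searched on both strands as the 8 spellings TTTCCCGC, TTTCCCGG, TTTCGCGC, TTTCGCGG, TTTGCCGC, TTTGCCGG, TTTGGCGC and TTTGGCGG, and CHR as TTTGAA and TTCGAA. E2F spellings occurred in 2 of 9 genes and in 6.19% of 35116 windows of this length, and CHR spellings in 2 of 9 genes and in 16.4% of windows. ATR held TTTCCCGG on the opposite strand at -211 to -204 from the start, and RNF168 held TTTGGCGG at -28 to -21. ATM held TTTGAA at -20 to -15, and MDC1 held TTTGAA at -130 to -125. Bases before the start are shown for the kinases ATR and ATM, which moved in opposite directions with INDY, and for RNF168, with the matched letters in capitals, written 5′ to 3′ along the gene.
ATR, chr3:142578734-142578983, minus strand: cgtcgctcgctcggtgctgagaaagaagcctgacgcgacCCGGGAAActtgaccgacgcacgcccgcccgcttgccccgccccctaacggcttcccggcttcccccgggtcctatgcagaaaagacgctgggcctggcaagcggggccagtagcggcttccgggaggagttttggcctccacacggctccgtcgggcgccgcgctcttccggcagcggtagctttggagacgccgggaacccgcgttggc
RNF168, chr3:196503769-196503868, minus strand: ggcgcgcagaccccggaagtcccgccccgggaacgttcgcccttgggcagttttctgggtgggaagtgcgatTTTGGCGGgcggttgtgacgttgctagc
ATM, chr11:108222967-108223066, plus strand: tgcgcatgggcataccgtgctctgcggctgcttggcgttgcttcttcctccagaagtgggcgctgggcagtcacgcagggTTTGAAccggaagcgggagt
ATR carried its match as the reverse complement, so the capitals read in that orientation. CHEK1, which rose with both compounds, held neither spelling within its window. For CHEK1 and TP53BP1 the RefSeq start lay away from the canonical start, at 1061 and -17484 bases along the gene. The bases around the canonical starts of CHEK1 and TP53BP1 were therefore not searched, and whether they hold either spelling is not known. Both genes are counted among the 9. A match is a run of letters and says nothing of binding in these cells.

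The apical kinase ATR rose with both compounds. It had 77.5, 77.2, 78.6 and 73.6 CPM in harmine libraries, against 57.9, 57.8, 57.7 and 58.4 CPM in water libraries. With INDY it had 86.5, 90.7, 74.9 and 89.9 CPM, against 60.0, 58.7, 58.8 and 55.9 CPM with DMSO. Every treated library lay above every control library, and INDY replicate 3 was the lowest of its group. The log2 fold changes were 0.40 (SE 0.05, adjusted p = 5.2e-07, edgeR) with harmine and 0.55 (SE 0.05, adjusted p = 3.26e-09) with INDY, or 32.4% and 46.4% more. The harmine effect minus the INDY effect was -0.15 (95% confidence interval -0.28 to -0.01), which missed the threshold (adjusted p = 0.059, edgeR). Without INDY replicate 3 this difference was -0.22 and passed (adjusted p = 0.000144).

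ATRIP, which carries ATR to RPA-coated DNA, had the largest rise of the 10 genes with harmine. It was at 23.8, 24.0, 22.4 and 25.0 CPM with harmine, against 14.4, 15.5, 16.2 and 12.6 CPM with water. With INDY it was at 20.4, 22.1, 19.7 and 20.3 CPM, against 14.9, 17.6, 17.7 and 17.1 CPM with DMSO. Neither pair of groups overlapped. Its log2 fold changes were 0.70 (SE 0.07, adjusted p = 7.39e-08, edgeR) with harmine and 0.29 (SE 0.07, adjusted p = 0.000815) with INDY. The effect was larger with harmine by 0.40 (adjusted p = 0.00129, edgeR), but without INDY replicates 1 and 3 this difference was 0.34 and was not called (adjusted p = 0.0115). ATRIP overlaps TREX1, an exonuclease gene, on the same strand, and 19.3% of its 100-nt transcript stretches also occur in TREX1. TREX1 itself averaged 2.43 ± 0.403 CPM with harmine and 2.27 ± 0.520 CPM with water, and 1.41 ± 0.413 CPM with INDY and 1.67 ± 0.398 CPM with DMSO (SD, n = 4 each), with no call. The part of this shared sequence in the values of ATRIP was not tested.

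CHEK1, the effector kinase of ATR, followed the same direction as ATR. In harmine libraries it had 48.6, 47.2, 48.5 and 46.3 CPM, against 34.1, 34.5, 34.6 and 31.3 CPM in water libraries. In INDY libraries it had 41.9, 42.3, 36.4 and 42.8 CPM, against 35.3, 36.5, 34.7 and 35.5 CPM in DMSO libraries. The harmine and water groups were far apart, whereas INDY replicate 3 lay just below the highest DMSO library. Log2 fold changes were 0.50 (SE 0.05, adjusted p = 3.45e-08, edgeR) with harmine and 0.20 (SE 0.05, adjusted p = 0.000731) with INDY, a difference of 0.30 (adjusted p = 0.000596). Without INDY replicates 2 and 4 the INDY effect was 0.15 and was no longer called (adjusted p = 0.0172). Of the 16 proliferation markers, 7 rose and 1 fell with harmine (24.9% and 22.8% of all genes tested), and 8 rose and 1 fell with INDY (33.2% and 33.4%). Their summed level, given above, did not overlap between harmine and water and overlapped between INDY and DMSO. Their part in the rises of ATR, ATRIP and CHEK1 was not tested.

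HUS1 was the gene of the ATR arm that did not follow ATR. It was at 21.1, 19.0, 18.9 and 19.1 CPM with harmine, against 25.5, 23.2, 24.2 and 24.5 CPM with water. It was at 27.8, 25.2, 27.7 and 25.5 CPM with INDY, against 25.0, 23.4, 25.9 and 25.2 CPM with DMSO. All harmine libraries lay below all water libraries, and the INDY and DMSO libraries overlapped. The gene fell with harmine by 0.32 on the log2 scale (SE 0.05, adjusted p = 1.75e-05, edgeR), and its log2 fold change with INDY was 0.10 (SE 0.05, adjusted p = 0.0786). The effects differed by -0.41 (adjusted p = 3.37e-05, edgeR). INDY replicates 1 and 3 were the highest of their group, and without replicates 2 and 4 the INDY effect was 0.17 and passed (adjusted p = 0.00865). Of the other clamp genes, RAD9A and RAD1, which were chosen here after their values were seen, rose with both compounds. RAD9A averaged 20.5 ± 0.607 CPM with harmine and 12.3 ± 0.577 CPM with water (SD, n = 4 each), a log2 fold change of 0.73, and 17.1 ± 0.773 CPM with INDY and 13.9 ± 0.584 CPM with DMSO, a log2 fold change of 0.30. RAD1 averaged 50.3 ± 1.54 CPM with harmine and 42.2 ± 0.916 CPM with water, and 64.3 ± 2.34 CPM with INDY and 43.6 ± 0.646 CPM with DMSO. Its log2 fold changes were 0.25 and 0.56.

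ATM, the kinase activated at breaks, fell with INDY. It had 85.9, 85.1, 80.1 and 87.0 CPM in INDY libraries, against 116, 119.7, 121 and 119.9 CPM in DMSO libraries. In harmine libraries it had 127, 126, 125 and 123 CPM, against 114, 122, 124 and 116 CPM in water libraries. The INDY libraries were well below all others, and the lowest harmine library lay below the highest water library. ATM fell by 0.50 on the log2 scale with INDY (SE 0.03, adjusted p = 8.29e-11, edgeR), which is 29.1% less. With harmine its log2 fold change was 0.08 (SE 0.03, adjusted p = 0.049), which did not pass. The harmine effect minus the INDY effect was 0.57 (95% confidence interval 0.48 to 0.67, adjusted p = 3.69e-09, edgeR), the largest such difference among the 10 genes.

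CHEK2, the effector kinase of ATM, was the lowest of the 10 genes in CPM, before any allowance for transcript length. It had 12.1, 11.7, 12.0 and 11.2 CPM with harmine, against 10.0, 10.98, 11.5 and 10.7 CPM with water. With INDY it had 12.5, 15.0, 11.9 and 13.2 CPM, against 11.4, 11.4, 11.7 and 12.3 CPM with DMSO. Both pairs of groups overlapped, and INDY replicate 2 was the highest library. The log2 fold changes were 0.12 (95% confidence interval -0.01 to 0.26, adjusted p = 0.113, edgeR) with harmine and 0.17 (0.04 to 0.30, adjusted p = 0.0217) with INDY. Leaving out INDY replicate 3 gave 0.22, which passed (adjusted p = 0.00407). The difference between the effects was -0.05 (95% confidence interval -0.24 to 0.14, adjusted p = 0.657, edgeR).

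The levels of paired genes relative to each other are shown per kilobase of canonical transcript, as descriptions of each library. ATM over ATR was 1.03 ± 0.0226 with harmine and 1.30 ± 0.0570 with water, and 0.627 ± 0.0355 with INDY and 1.29 ± 0.0540 with DMSO (SD, n = 4 each). ATM thus exceeded ATR per kilobase in every control library and was below it in every INDY library. CHEK1 over CHEK2 was 1.81 ± 0.0210 with harmine and 1.40 ± 0.0924 with water, and 1.39 ± 0.107 with INDY and 1.36 ± 0.0609 with DMSO. TP53BP1 over MDC1 was 0.434 ± 0.00863 with harmine and 0.586 ± 0.0450 with water, and 0.277 ± 0.00930 with INDY and 0.512 ± 0.0278 with DMSO. The harmine libraries stood apart from the water libraries in these 3 ratios, and the INDY libraries stood apart from the DMSO libraries in ATM over ATR and in TP53BP1 over MDC1. ATRIP over ATR was 0.554 ± 0.0399 with harmine and 0.451 ± 0.0491 with water, and 0.431 ± 0.0282 with INDY and 0.516 ± 0.0483 with DMSO, and it too was separate between harmine and water. RNF8 over RNF168 was 0.667 ± 0.0267 with harmine and 0.619 ± 0.0384 with water, and 0.735 ± 0.0364 with INDY and 0.647 ± 0.0407 with DMSO. Per kilobase, MDC1 was the highest of the 10 genes in all 4 groups (24.3 CPM per kb with DMSO) and ATRIP the lowest (3.68 CPM per kb with DMSO).

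**Figure D3:**
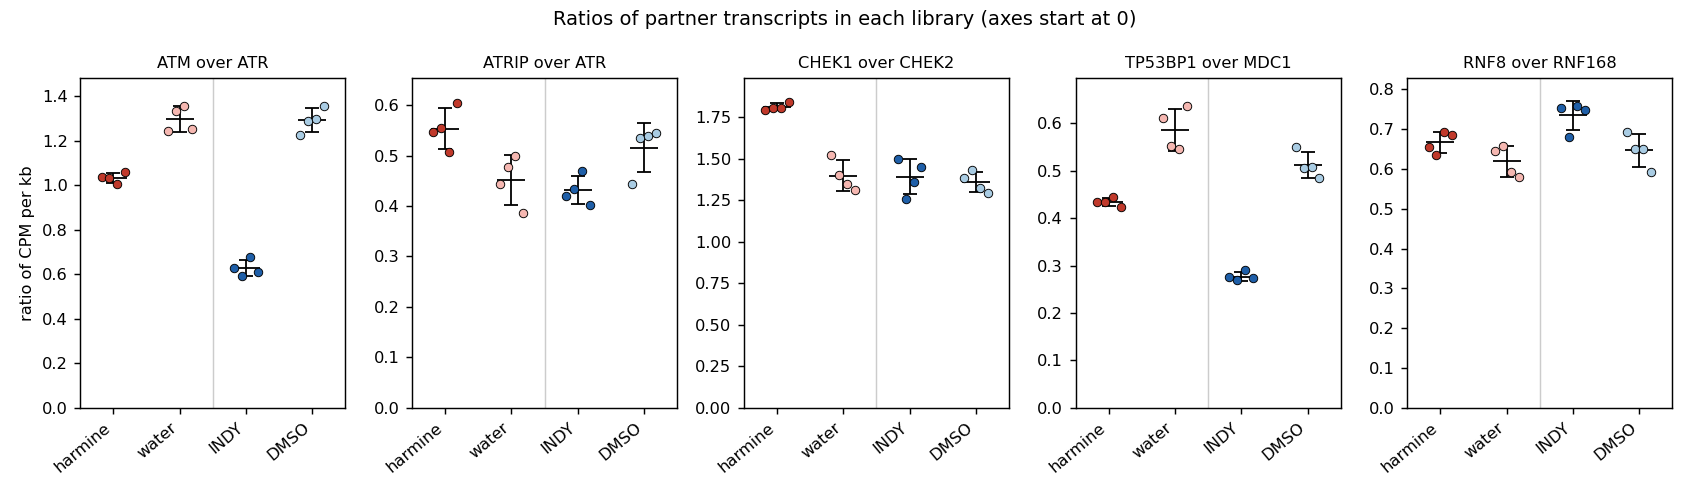
Ratios of CPM per kilobase between paired checkpoint genes (y axis) in each library of the 4 groups (x axis), with points for libraries and the mean and SD drawn. ATM over ATR averaged 0.627 with INDY and 1.29 with DMSO, and CHEK1 over CHEK2 averaged 1.81 with harmine and 1.40 with water.

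MDC1, the scaffold that binds phosphorylated H2AX, was the most abundant of the 10 genes and had the smallest called change with harmine. It had 169.8, 170.3, 168 and 171 CPM with harmine, against 147, 162, 162 and 151 CPM with water. With INDY it had 203, 206, 191 and 206 CPM, against 162, 171, 171 and 174 CPM with DMSO. Neither pair of groups overlapped, but the harmine libraries lay within the range of the DMSO libraries. MDC1 rose by a log2 fold change of 0.13 with harmine (SE 0.03, adjusted p = 0.00417, edgeR) and of 0.25 with INDY (SE 0.03, adjusted p = 2.69e-06). The harmine call was lost on leaving out any harmine library, water replicate 1 or water replicate 4 (log2 fold changes 0.10 to 0.12), and the log2 fold change was 0.07 without water replicates 1 and 4 (adjusted p = 0.12). The difference between the effects was -0.12 (95% confidence interval -0.23 to -0.02, adjusted p = 0.0346, edgeR), and it passed without INDY replicate 3 (-0.17, adjusted p = 0.00328). MDC1 overlaps the abundant tubulin gene TUBB on the opposite strand, and the strand setting of the counting is not given in the sources used here. TUBB was itself called with harmine (0.10) and with INDY (0.46).

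The ubiquitin ligase RNF8 rose with INDY. It was at 50.9, 42.7, 52.1 and 46.7 CPM in INDY libraries, against 35.7, 33.0, 34.2 and 30.7 CPM in DMSO libraries. In harmine libraries it was at 36.4, 33.7, 37.2 and 35.6 CPM, against 34.3, 34.6, 31.7 and 33.8 CPM in water libraries. All INDY libraries lay above all DMSO libraries, with INDY replicates 1 and 3 highest, and harmine and water overlapped. The log2 fold change was 0.53 with INDY (SE 0.06, adjusted p = 1.25e-07, edgeR) and 0.09 with harmine (95% confidence interval -0.03 to 0.21, adjusted p = 0.203).

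RNF168, which extends the ubiquitin marks that RNF8 starts, had the same calls. It was at 64.4, 59.8, 65.4 and 59.4 CPM with INDY, against 49.2, 48.4, 50.0 and 49.2 CPM with DMSO. With harmine it was at 52.8, 50.6, 51.1 and 49.5 CPM, against 50.7, 49.9, 50.9 and 55.5 CPM with water. INDY and DMSO were separate, and harmine and water overlapped, with water replicate 4 above all others of its group. The log2 fold change was 0.34 with INDY (SE 0.04, adjusted p = 2.47e-07, edgeR) and -0.022 with harmine (95% confidence interval -0.10 to 0.06, adjusted p = 0.66). The effects of harmine minus INDY were -0.44 for RNF8 (adjusted p = 0.000126, edgeR) and -0.36 for RNF168 (adjusted p = 1.49e-05).

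TP53BP1, which binds the nucleosomes marked by RNF168, fell with both compounds. It had 109.8, 110.0, 111 and 108 CPM in harmine libraries, against 134, 133, 131 and 143 CPM in water libraries. In INDY libraries it had 83.2, 82.6, 82.4 and 83.8 CPM, against 133, 128, 129 and 125 CPM in DMSO libraries. No treated library reached any control library, and the 4 INDY libraries were close together. The gene fell by 0.30 on the log2 scale with harmine (SE 0.03, adjusted p = 5.43e-08, edgeR) and by 0.64 with INDY (SE 0.03, adjusted p = 6.8e-13), which is 18.9% and 35.7% less. The harmine effect minus the INDY effect was 0.34 (adjusted p = 1.06e-06, edgeR). TP53BP1 overlaps TUBGCP4 on the opposite strand. With INDY, TP53BP1 thus stood lower while MDC1, RNF8 and RNF168, which act before it at breaks, stood higher.

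Effects differed between the compounds as given for 7 of the 10 genes, where 54.5% of all genes tested did. The harmine effect was the higher for 4 (ATM, ATRIP, CHEK1 and TP53BP1; background 28.1%) and the lower for 3 (RNF8, RNF168 and HUS1; background 26.4%). The intervals for ATR, CHEK2 and MDC1 above do not show that the compounds acted alike on them. Between the control groups, DMSO against water, none of the 10 genes passed in edgeR's test, where 4.29% of all genes did. The lowest p-values of the 10 genes there were those of MDC1, ATRIP and TP53BP1. The log2 fold change was 0.20 for ATRIP (adjusted p = 0.074), -0.07 for TP53BP1 (adjusted p = 0.137) and 0.12 for MDC1 (adjusted p = 0.0279, edgeR). DESeq2 called MDC1 (adjusted p = 0.00632). Groups did not overlap for 2 genes (CHEK1 and MDC1), where 19.9% of all genes did not. With DMSO libraries in place of water libraries, the harmine effect on MDC1 was 0.0039 (adjusted p = 0.933, edgeR), and with water libraries in place of DMSO libraries the INDY effect on CHEK2 was 0.29 and passed (adjusted p = 0.000498).

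The neighbours of the 10 genes in the pathway were followed in 6 lists of 55 genes, all of them tested. With harmine, 33 rose and 6 fell (median log2 fold change 0.26), and with INDY 26 rose and 15 fell (median 0.11). Among all genes tested, 24.9% rose and 22.8% fell with harmine, and 33.2% rose and 33.4% fell with INDY. These shares are the background for each list below, and each list holds few genes.

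Of the clamp and clamp loader genes, 9 of 10 rose with harmine and none fell (median 0.61), and 8 rose and 1 fell with INDY (median 0.30). The largest fitted log2 fold changes with harmine were those of HUS1B (1.54, adjusted p = 0.00117, edgeR) and RAD9B (1.48, adjusted p = 0.00142), paralogs of HUS1 and RAD9A at very low levels. HUS1B averaged 0.188 ± 0.0383 CPM with harmine and 0.0656 ± 0.0377 CPM with water, and RAD9B 0.510 ± 0.140 CPM with harmine and 0.182 ± 0.0576 CPM with water. Both lay near the count filter (0.191 CPM), which HUS1B reached in 3 of 4 harmine, 0 of 4 water, 4 of 4 INDY and 1 of 4 DMSO libraries. RAD9B reached it in 4 of 4 harmine, 2 of 4 water, 1 of 4 INDY and 3 of 4 DMSO libraries. Without these genes, 7 of the other 8 rose with harmine (median 0.54), and 7 rose and 1 fell with INDY (median 0.30). The harmine calls of HUS1B and RAD9B were lost without water replicates 2 and 3 and with DMSO as the control. Of the 19 alternatives with harmine, HUS1B could be tested in 17 and RAD9B in 18. With INDY the largest called changes were those of HUS1B (2.73, with 1.05 ± 0.0512 CPM against 0.154 ± 0.0457 CPM with DMSO) and RAD1 (0.56, given above). RAD9B averaged 0.144 ± 0.0962 CPM with INDY and 0.243 ± 0.0702 CPM with DMSO and was not called (-0.75, adjusted p = 0.105, edgeR). Of the ATR activators and fork mediators, 7 of 8 rose with harmine and none fell (median 0.33), and 3 rose and 3 fell with INDY (median 0.07). TIMELESS, a fork protection protein, averaged 138 ± 2.84 CPM with harmine and 82.8 ± 2.47 CPM with water, and 126 ± 4.94 CPM with INDY and 80.8 ± 1.54 CPM with DMSO, log2 fold changes of 0.74 and 0.65. RPA3, a subunit of the single-strand binding complex, rose by 0.53 with harmine and was not called with INDY (0.13, adjusted p = 0.0202, edgeR). RPA1, another subunit, rose by 0.52 with harmine and by 0.55 with INDY. RPA2, the remaining subunit, rose with harmine (0.30) and fell with INDY (-0.25).

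The break sensors that act before ATM gave 1 rise and 2 falls of 4 genes with harmine (median -0.10) and 3 falls with INDY (median -0.29). The backgrounds for rises and falls were 24.9% and 22.8% with harmine and 33.2% and 33.4% with INDY. MRE11, the nuclease of the sensor complex, averaged 57.9 ± 3.52 CPM with harmine and 43.1 ± 2.51 CPM with water, and 34.5 ± 2.36 CPM with INDY and 44.8 ± 1.08 CPM with DMSO. It rose with harmine (0.42) and fell with INDY (-0.38). NBN, its partner, averaged 60.4 ± 1.15 CPM with harmine and 95.2 ± 3.91 CPM with water (log2 fold change -0.66). NBN was not called with INDY (-0.07). KAT5, an acetyltransferase that activates ATM, averaged 34.8 ± 2.08 CPM with INDY and 49.0 ± 1.41 CPM with DMSO (log2 fold change -0.50), and it also fell with harmine (-0.34). Of 7 related kinases and maturation factors, 4 rose and 2 fell with harmine (median 0.20), and 4 rose and 3 fell with INDY (median 0.18). TELO2 and TTI1, which help to fold these kinases, rose with harmine (0.43 and 0.38) and with INDY (0.37 and 0.18). TTI2 of the same complex rose by 0.46 with INDY and was not called with harmine (-0.07). PRKDC, the kinase of end joining, had 356 ± 52.3 CPM with INDY and 484 ± 18.0 CPM with DMSO (-0.44), and it rose with harmine (0.28).

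Of 16 genes for ubiquitin and 53BP1 effectors at breaks, 7 rose and 2 fell with harmine (median 0.08), and 5 rose and 4 fell with INDY (median -0.02). Among all genes tested, 24.9% rose and 22.8% fell with harmine, and 33.2% rose and 33.4% fell with INDY. The INDY counts of this list stood near or under that background. BRCA1, which opposes 53BP1 in resection, averaged 78.7 ± 1.42 CPM with harmine and 46.6 ± 3.64 CPM with water (0.75). SHLD1, of the shieldin complex, was at 1.23 ± 0.308 CPM with harmine and 1.83 ± 0.193 CPM with water (-0.57, adjusted p = 0.00375, edgeR), a call lost in 3 of 19 alternatives. Neither BRCA1 (-0.09) nor SHLD1 (-0.03) was called with INDY. With INDY, ABRAXAS1, of the BRCA1-A complex, had 18.2 ± 3.79 CPM, against 42.7 ± 1.95 CPM with DMSO (-1.24). UIMC1 (RAP80), which brings that complex to ubiquitin, had 64.9 ± 1.98 CPM with INDY and 29.3 ± 0.694 CPM with DMSO (1.15), so these partners moved in opposite directions with INDY. With harmine, UIMC1 rose (0.30) and ABRAXAS1 was not called (0.13). Of 10 checkpoint targets and brakes, 5 rose and none fell with harmine (median 0.16), and 6 rose and 1 fell with INDY (median 0.29). PKMYT1 (1.00) and WEE1 (0.78), kinases that hold CDK1 inactive, rose with harmine. With INDY, PKMYT1 rose (0.44) and WEE1 was not called (-0.02). MDM4 averaged 56.4 ± 5.13 CPM with INDY and 37.8 ± 1.13 CPM with DMSO (0.58), and was not called with harmine (-0.04).

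**Figure D4:**
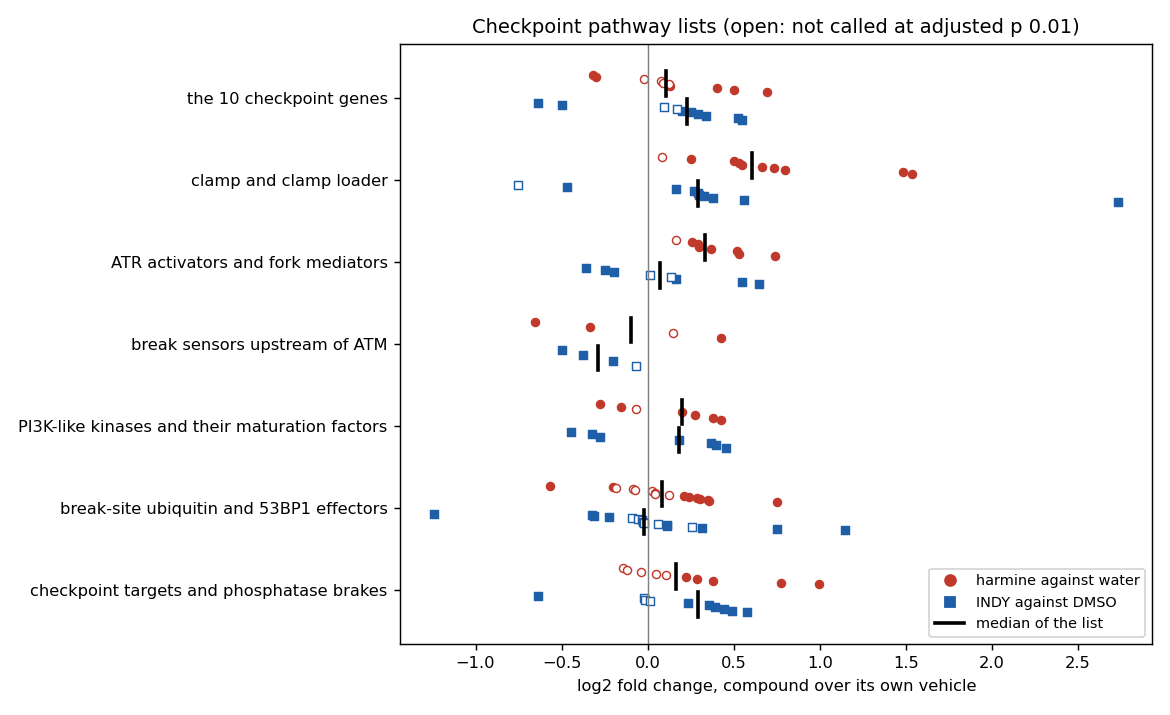
Log2 fold change of each gene (points) in the 6 pathway lists and among the 10 checkpoint genes, for harmine over water and INDY over DMSO, with list medians marked. The clamp and clamp loader list had medians of 0.61 with harmine and 0.30 with INDY, and the break sensors had medians of -0.10 and -0.29.

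The genes most like ATRIP, the gene with the largest change with harmine, were CIT (Pearson r = 0.979 of log2 CPM over the 16 libraries), SPRYD3 (0.976) and RFC5 (0.973). Those most like TP53BP1, the gene with the largest change with INDY, were GLCE (0.996), NOTCH3 (0.994) and RALGAPA2 (0.993). The 16 libraries fall into 4 groups, so these values describe the group pattern and were given no test.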

How the data were processed

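RNA from 16 U2OS libraries was sequenced by the authors as stranded, polyA-selected, paired-end libraries, and groups and replicate numbers were taken from the labels. The deposited values are estimated counts. The authors quantified reads with Salmon 1.1 against GENCODE 37 transcripts (GRCh38) and summed them per gene with tximport 1.14.2; edgeR 3.28.1 is named for their tests. Between 27.7 and 31.9% of values per library were not whole (tolerance 1e-06), and counts were rounded. Genes passing filterByExpr were tested in R 4.3.3 with edgeR 4.0.16 (glmQLFit and glmQLFTest, TMM factors 0.982 to 1.022, common dispersion 0.00315) in one model of the 4 groups, with Benjamini-Hochberg adjustment over 20446 genes and a threshold of 0.01. Coordinates and neighbouring genes came from GENCODE 44; MDC1 was matched by symbol, since its identifier differed.

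The 10 genes and the pathway lists were chosen with earlier results of these data known. All 10 genes are named, with the 2 largest called changes per list and compound and the 3 genes most like 2 of them. RAD1, RAD9A, RPA2, overlapping genes and the single markers named were added after their values were seen. So were the values of named pathway genes with the other compound. A gene that this rule names is not reported here. Scripts were tested on simulated data. Alternatives were DESeq2 1.42.0, upper-quartile factors, limma voom 3.58.1, other filters and thresholds, only the 8 libraries compared, a replicate block and leaving out each library. Leaving out the pairs of libraries that stood apart, and swapping the control groups, were chosen after seeing the data.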

Additional observations from a re-analysis of the deposited data

Results flagged for a closer look

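In 4 cases a library stood away from the others of its group by Dixon's test, among 40 groups of 4 libraries checked, where chance flags about 1 in 20 groups. CHEK1 had 36.4 CPM in INDY replicate 3, below the other INDY libraries, and 31.3 CPM in water replicate 4, below the other water libraries. RNF168 had 55.5 CPM in water replicate 4, above the others. HUS1 had 21.1 CPM in harmine replicate 1, above the others.

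Effects of 7 genes were called as different between the compounds, as tested in the edgeR model. The harmine effect minus the INDY effect on the log2 scale was 0.57 for ATM, 0.40 for ATRIP, 0.34 for TP53BP1 and 0.30 for CHEK1. It was -0.36 for RNF168, -0.41 for HUS1 and -0.44 for RNF8. Doses and vehicles differed between the compounds, and their part in these differences cannot be told apart from that of the compound.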

How the results depend on the processing

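Apart from the fold minimum, the calls held in every alternative for 5 of 6 genes with harmine (not MDC1), 7 of 8 with INDY (not CHEK1) and 6 of 7 for the difference (not ATRIP). MDC1 with harmine was also lost with upper-quartile factors (0.11) and without the filter (0.11); the cause was not tested. A minimum of 1.5-fold left 1 checkpoint gene higher (ATRIP) and 0 lower with harmine (3335 of all genes), 0 higher and 1 lower with INDY (TP53BP1; 6889 of all genes), and 0 higher and 0 lower for the difference (5957 of all genes), by its construction.

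The log2 fold change of RNF168 with harmine changed sign: -0.054 to 0.013 on leaving out 1 library, 0.017 without water replicates 1 and 4, and 0.052 with DMSO in place of water. That of CHEK2 for the difference was -0.11 to 0.0012 on leaving out 1 library and 0.038 without INDY replicates 2 and 4. Neither was called. The difference gave 3 to 5 genes lower on leaving out 1 library (5 without INDY replicate 3) and 5 without INDY replicates 1 and 3, where ATR and MDC1 were added.

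For DMSO against water, 877 of all genes were called, and 1592 with DESeq2, 2384 at an adjusted p under 0.05, 161 at 1.5-fold, 329 to 1015 on leaving out 1 library (356 without water replicate 1, 372 without water replicate 4, 329, 347 and 343 without DMSO replicates 2, 3 and 4), 121 without water replicates 1 and 4, and 1608 without water replicates 2 and 3. One checkpoint gene, MDC1, was called with DESeq2, at an adjusted p under 0.05 and without water replicates 2 and 3.

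Whether replicate numbers pair the libraries was not settled. Same-numbered deviations correlated at -0.0527 to -0.00662 for harmine and water and -0.0193 to 0.0868 for INDY and DMSO. Of the libraries, 0 of 4 harmine and 3 of 4 INDY correlated best with their own number. Harmine replicates 1, 2, 3 and 4 correlated best with water replicates 4, 3, 2 and 1. A replicate block gave 4 genes higher and 2 lower with harmine, 6 and 2 with INDY, 4 and 3 for the difference, and 9475, 13423 and 10892 of all genes. With harmine, the libraries of ATM, CHEK2, RNF8 and RNF168 overlapped those with water.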

Other observations

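Genes that overlap 5 of the checkpoint genes had their own changes. TUBGCP4, a gamma-tubulin complex gene opposite TP53BP1, averaged 36.4 ± 0.181 CPM with harmine and 41.7 ± 2.22 CPM with water (SD, n = 4 each), and 71.7 ± 3.43 CPM with INDY and 43.2 ± 1.73 CPM with DMSO. Its log2 fold changes were -0.20 with harmine and 0.73 with INDY, both called by edgeR, so it moved against TP53BP1 with INDY. STT3A, an oligosaccharyltransferase gene that overlaps CHEK1 on the same strand, averaged 145 ± 2.47 CPM with harmine and 140.5 ± 2.41 CPM with water, and 107 ± 2.39 CPM with INDY and 133 ± 2.90 CPM with DMSO. It was called with INDY (-0.32) and not with harmine (0.04). TUBB, opposite MDC1, averaged 1277 ± 13.8 CPM with harmine and 1192 ± 24.2 CPM with water, and 1774 ± 59.9 CPM with INDY and 1292 ± 11.8 CPM with DMSO. It was also called between DMSO and water (0.12, adjusted p = 0.00668, edgeR). HSCB, a co-chaperone gene opposite CHEK2, averaged 11.7 ± 0.394 CPM with harmine and 9.93 ± 0.369 CPM with water (0.23, adjusted p = 0.00123, edgeR), and 10.7 ± 0.592 CPM with INDY and 10.9 ± 0.584 CPM with DMSO (-0.03, adjusted p = 0.65). C11orf65, opposite ATM, was called with harmine (1.30, adjusted p = 0.00204, edgeR) and not with INDY (-0.42, adjusted p = 0.276). The part of these overlaps in the values of TP53BP1, CHEK1, MDC1, CHEK2 and ATM was not tested.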
